A study of Mus musculus with 9 samples.

Results

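The proteasome genes described here are the protein-coding genes whose symbol starts with Psma, Psmb, Psmc, Psmd, Psme, Psmf or Psmg followed by a digit, without the 5 genes of the interferon-inducible form (Psmb8, Psmb9, Psmb10, Psme1 and Psme2). This rule chose 46 of the 55414 genes in the count table by name alone, and 44 of them had enough counts to be tested. They comprise 14 subunits of the 20S core, 17 of the 19S regulatory particle, 7 assembly chaperones, 3 activators or inhibitors, 2 tissue-restricted core subunits and 3 other genes. These 3 match the symbol pattern but were placed in none of those roles, and include Psme2b, a near copy of the excluded Psme2. RNA was sequenced from retinas of Balb/c mice, an albino strain whose photoreceptors are sensitive to bright light, in 9 libraries. The 3 groups of 3 were control mice, mice of the light damage model, and mice of that model with A74. What A74 is, its dose and vehicle, the length of the light exposure, the time of sampling and the animals' age do not appear in the labels. P2RX7, an ion channel opened by ATP, is the target named in the title of the series. Nothing in the labels says that replicates came from separate animals, so each p-value measures the spread between these samples, which may be partly technical.

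The proteasome is the cell's main machine for breaking down proteins tagged with ubiquitin. Its 20S core is a barrel of stacked rings, in which the outer alpha rings gate the entrance and the inner beta rings carry the proteolytic sites. The 19S particle caps the barrel, binds the ubiquitin chain, removes it and threads the unfolded protein inside. Rods renew their outer segments throughout life and turn over large amounts of protein, and proteasome genes are induced together when the machine is overloaded.

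Library totals ran from 14787972 to 18740434 counts. Levels are given as CPM, counts divided by a library size corrected with TMM (trimmed mean of M-values) factors, and a gene was called when its adjusted p in edgeR's quasi-likelihood test, over all 17272 genes tested, was under 0.05. Libraries within groups differed in ways the labels do not give. Genes of anterior eye tissue were high in replicates 1 and 2 of control, replicates 1 and 2 of light damage and replicate 1 of A74, here called the high tissue set, and low in the other 4. Y-linked transcripts were present in replicates 1 and 2 of control and of light damage and had 0 counts elsewhere, A74 included. Xist, the RNA of the inactive X chromosome, had 17227 to 22253 counts in control replicate 3 and the 3 A74 libraries and at most 7 in the others, so light damage replicate 3 stood apart with 0 Y-linked counts and 1 Xist count. The 12 rod markers summed to 61133 to 66733 CPM in control, 35710 to 52015 in light damage and 59307 to 62456 with A74. The 10 microglia and macrophage markers summed to 51.1 to 53.9, 162 to 284 and 55.7 to 79.4 CPM in the same order, and the 6 Müller glia markers to 3961 to 4542, 4600 to 5111 and 3934 to 4451 CPM. No marker of these 3 lists was at 0 in every library. The 5 pigment epithelium markers summed to 20.2 to 121 CPM in control, 56.1 to 74.8 in light damage and 23.9 to 42.5 with A74. For the 7 cone markers these sums were 1444 to 1555, 1472 to 1772 and 1386 to 1681 CPM. The 10 lens markers, 1 of them at 0 throughout, reached 782 CPM in 1 A74 library and at most 84.2 CPM in control. Values within the tissue sets, and with tissue set or Y-linked transcripts as a term, are given where they bear on a result. The part of the marker shifts in the results below was not tested, and in bulk retina fewer cells of a type and less RNA per cell cannot be told apart.

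The 46 genes together took 0.284 to 0.293% of the counts in control, 0.328 to 0.343% in light damage and 0.309 to 0.321% with A74. On the TMM scale their summed level was 2996 ± 98.4 CPM in control (SD, n = 3), 3251 ± 87.6 CPM in light damage and 3191 ± 37.4 CPM with A74. Per kb of principal transcript (lengths from GENCODE M21, an annotation of another build than the counts), the 7 alpha subunits of the control retina had a median of 44.8 CPM, the 7 beta subunits 47.7, the 6 ATPases 71.0 and the 8 lid subunits 41.2. Psmb6, the caspase-like catalytic subunit, was highest at 96.1 CPM per kb, followed by the ATPase Psmc5 at 85.5 and the beta subunit Psmb4 at 83.3. The control libraries of Psmb6, at 92.9 to 98.6, did not overlap with those of Psmc5, at 81.1 to 89.1, while Psmc5, Psmb4, Psma7 and Psmc1 overlapped with each other. Psmb5, the chymotrypsin-like catalytic subunit and the target of proteasome inhibitor drugs, was the lowest of the 14 core subunits at 16.0 CPM per kb, in a control range of 13.1 to 18.5. The third catalytic subunit, the trypsin-like Psmb7, stood between them at 45.0. The 7 chaperones ran from 7.72 for Psmg4 to 24.8 for Psmg2. The tissue-restricted subunits were close to silent: Psma8, the testis form of an alpha subunit, had at most 1 count and Psmb11, the thymus form of Psmb5, at most 3 counts in any library.

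**Figure D1:**
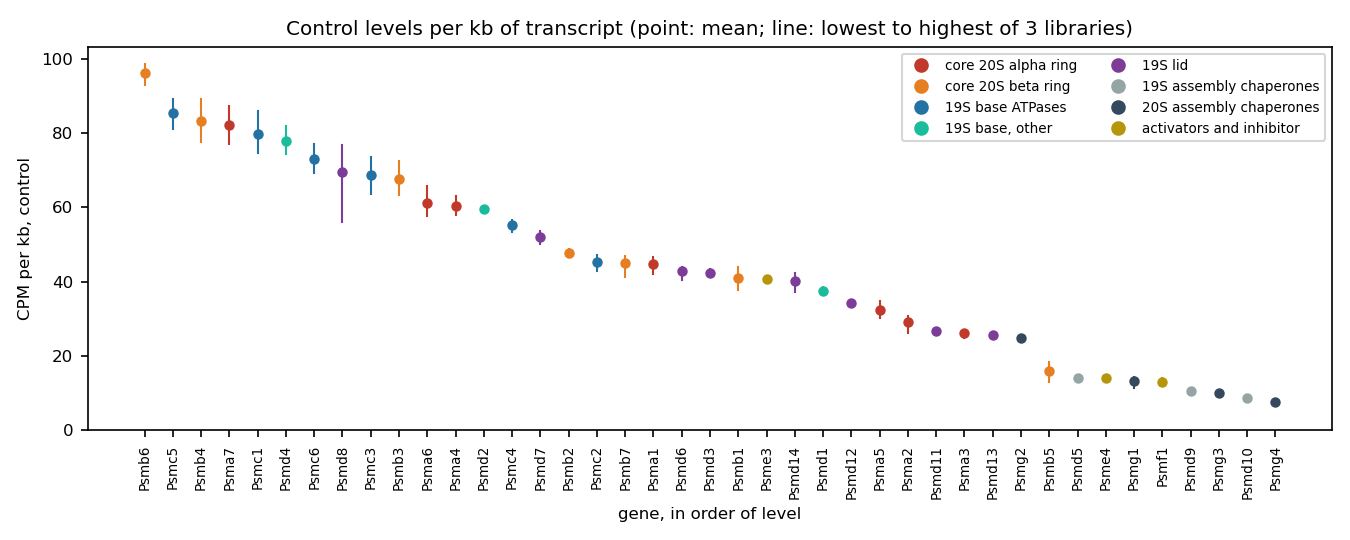
Control level of each proteasome subunit, chaperone and activator in CPM per kb of principal transcript, with the gene on the x axis in order of level. Points are means of 3 libraries and lines run from the lowest to the highest library. Psmb6 stands at 96.1 and Psmb5, another catalytic subunit, at 16.0.

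Light damage was compared with control to see how the proteasome genes responded to light. Of the 44 tested genes, 15 were called higher and 2 lower than in control, where 13.0% of all genes tested were called higher and 12.8% lower. Either way, 25.8% of all genes were called. Where the background was limited to genes averaging 10 CPM or more, as most proteasome genes do, these shares were 14.7% higher and 17.9% lower. The median log2 fold change was 0.15 over the 44 and 0.01 over all genes tested, and 40 of the 44 values lay above 0, against 51.1% of all genes. The 20S core gave 10 of the 15 higher genes. In 24 of the 44 genes every light damage library lay above every control library, an order that 20.6% of all genes showed.

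**Figure D2:**
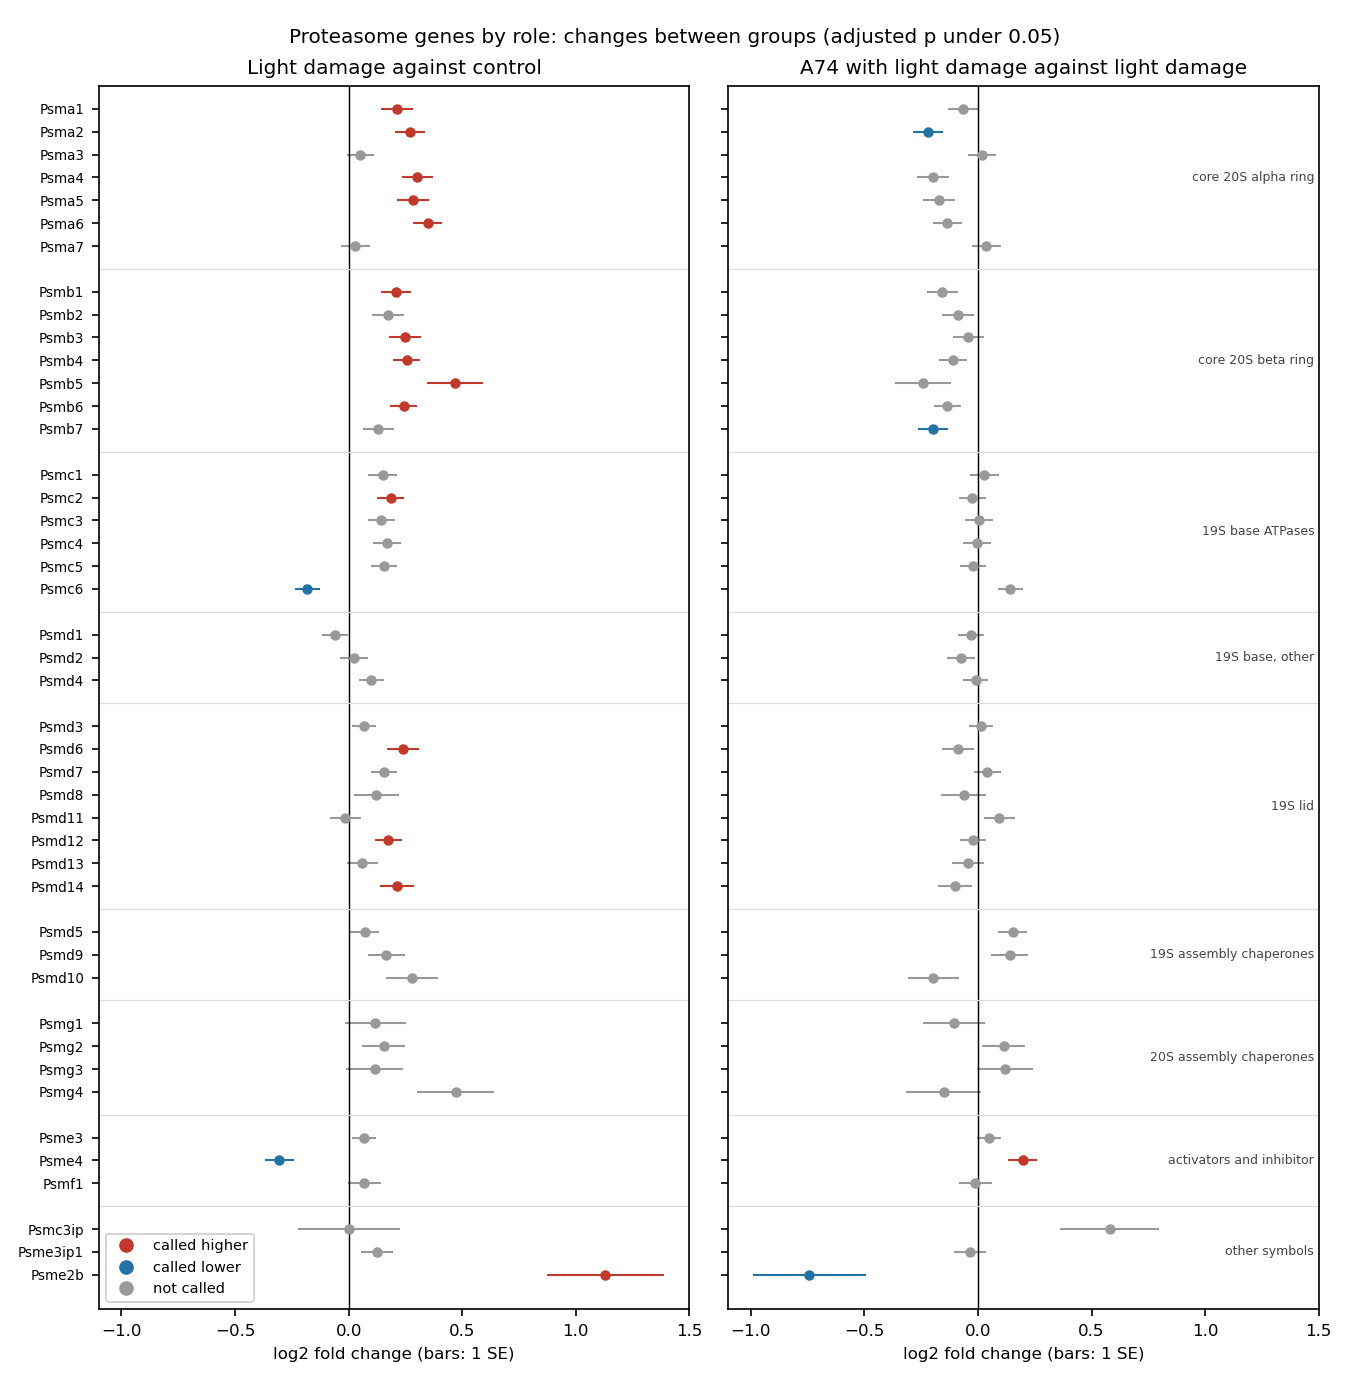
Log2 fold change of each tested gene by role, for light damage against control on the left and A74 with light damage against light damage on the right. Bars are 1 SE, and colour marks genes with an adjusted p under 0.05. On the left 10 of 14 core genes are called higher, and on the right 2 core genes are called lower.

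In the alpha ring, whose subunits gate the core and dock its caps, Psma1, Psma2, Psma4, Psma5 and Psma6 rose after light. Psma6 had 62.9, 68.5 and 60.0 CPM in control and 81.8, 85.1 and 76.7 CPM in light damage. Its lowest light damage library was above its highest control library, and the log2 fold change was 0.35 ± 0.06 (SE, adjusted p = 0.0010). Psma4 went from 67.5 to 73.5 CPM in control to 83.6 to 91.1 CPM in light damage, again without overlap, with a log2 fold change of 0.30 (adjusted p = 0.0043). Psma2 rose by 0.27 and Psma5 by 0.28 on the log2 scale. The remaining alpha subunits did not pass the test, with log2 fold changes of 0.05 for Psma3 and 0.03 for Psma7 and overlapping libraries. Psma7 had 70.5 to 79.8 CPM in control and 73.8 to 80.5 CPM in light damage. The summed alpha ring stood at 115.8% of its control mean in light damage.

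In the beta ring Psmb1, Psmb3, Psmb4, Psmb5 and Psmb6 rose. Psmb5, the chymotrypsin-like subunit, had 16.6, 14.7 and 11.8 CPM in control and 18.8, 22.5 and 18.2 CPM in light damage. These libraries did not overlap, and its log2 fold change of 0.47 ± 0.12 (adjusted p = 0.010) was the highest among the core subunits. Psmb5 did not pass without control replicate 3 (0.35, adjusted p = 0.053) or without light damage replicate 2 (0.38, adjusted p = 0.063). Psmb3 also lost its call without either of these or without control replicate 1 (adjusted p 0.052 to 0.078). Psmb6, the caspase-like subunit, had 77.3, 78.7 and 74.2 CPM in control and 89.2, 96.3 and 86.6 CPM in light damage, a log2 fold change of 0.24 ± 0.06 (adjusted p = 0.0068). Psmb4, a structural beta subunit needed to join the half-barrels, rose from 91.8 to 106 CPM in control to 114 to 124 CPM (log2 fold change 0.26, adjusted p = 0.0056). Psmb7, the trypsin-like subunit, had 48.0 to 54.4 CPM in control and 56.4 to 57.9 CPM in light damage, and its log2 fold change of 0.13 did not pass (adjusted p = 0.16). Psmb2 likewise did not pass, at 0.17 (adjusted p = 0.086), though its libraries did not overlap. All 7 beta subunits had every light damage library above every control library, an order that 20.6% of all genes showed. The summed beta ring stood at 117.1% of its control mean.

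**Figure D3:**
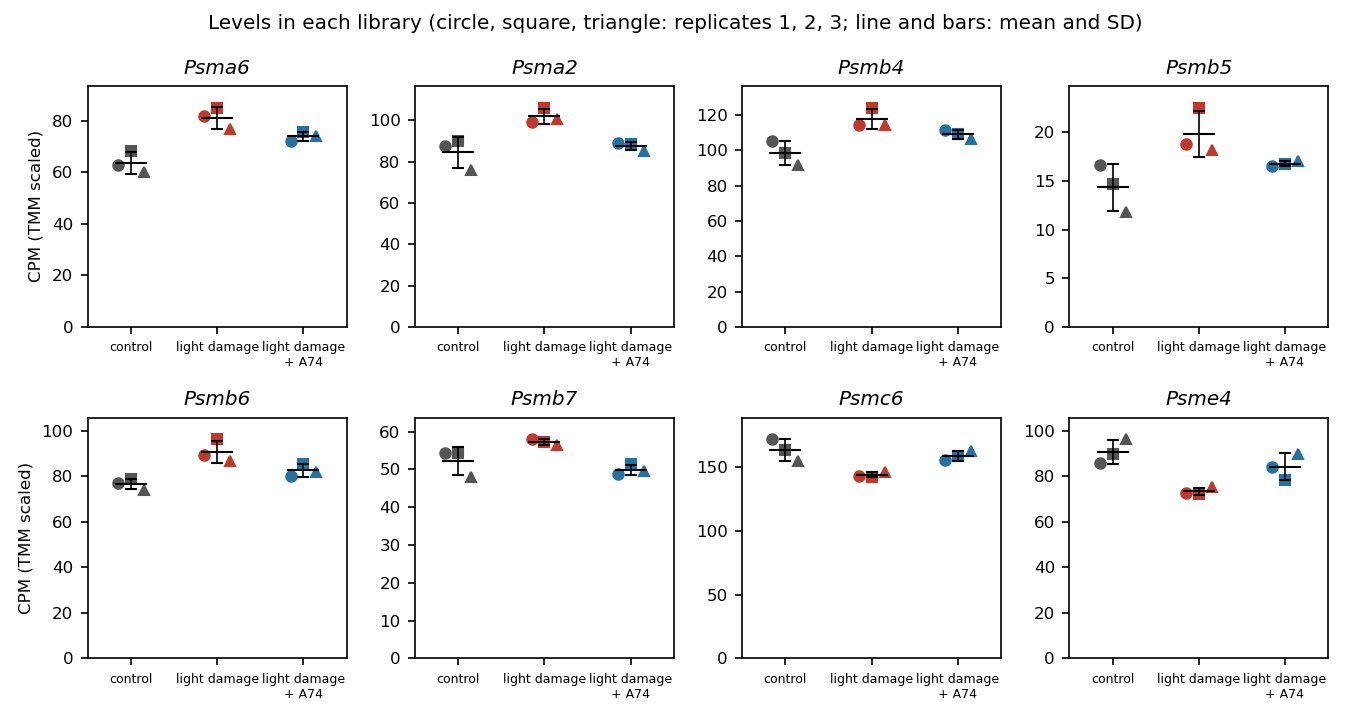
Level in CPM of 8 genes in each library by group, with mean and SD. Psma6, Psma2, Psmb4, Psmb5, Psmb6 and Psmb7 have their highest 3 libraries in light damage, and Psmc6 and Psme4 their lowest 3.

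In the 19S particle, 4 of 17 subunits rose and 1 fell. Of all genes, 13.0% were called higher and 12.8% lower, 25.8% either way. Psmc2, one of the 6 ATPases that unfold the substrate, rose from 76.6 to 84.4 CPM in control to 88.4 to 95.5 CPM in light damage (log2 fold change 0.18, adjusted p = 0.027). Psmc1, Psmc3, Psmc4 and Psmc5 had log2 fold changes of 0.14 to 0.17 with adjusted p of 0.056 to 0.091. Psmc6, another of these ATPases, had 172, 164 and 155 CPM in control and 143, 143 and 146 CPM in light damage. It fell by 0.18 on the log2 scale (SE 0.05, adjusted p = 0.022), with every light damage library below every control library. The fall of Psmc6 did not pass when any one of control replicates 1 and 2 and light damage replicates 1 and 2 was left out (adjusted p 0.060 to 0.14), or on plain library totals (log2 fold change -0.08, adjusted p = 0.25).

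In the lid, which cuts ubiquitin chains off the substrate, 3 of 8 subunits rose, against 13.0% of all genes. Psmd14, the metalloprotease that does the cutting, went from 57.5 to 65.4 CPM to 66.5 to 74.5 CPM (log2 fold change 0.21, adjusted p = 0.047). The scaffold subunits Psmd6 and Psmd12 rose by 0.24 and 0.17. Psmd6 did not pass without control replicate 2 (0.20, adjusted p = 0.095) or without light damage replicate 2 (0.21, adjusted p = 0.081). The base scaffolds Psmd1 and Psmd2 and the ubiquitin receptor Psmd4 had log2 fold changes of -0.06, 0.02 and 0.10, none passing. Psmd2, the docking site of ubiquitin shuttles, had 174 to 178 CPM in control and 168 to 187 CPM in light damage. The calls of Psma1, Psmb1, Psmc2, Psmd12 and Psmd14 were each lost without light damage replicate 2 (adjusted p 0.074 to 0.12) and without control replicate 3 (0.054 to 0.17), and those of Psma1, Psmd12 and Psmd14 also in DESeq2 (0.055 to 0.081). All of these but Psmc2 lost the call without control replicate 1 (0.077 to 0.14), Psmc2 and Psmd12 without control replicate 2 (0.13 and 0.079), and Psma1, Psmb1 and Psmd14 without light damage replicate 1 (0.088 to 0.12). Psmd12 and Psmd14 also missed the threshold without A74 replicate 2 (0.053 and 0.052), a library outside this comparison. Without light damage replicate 2, none of the 17 cap genes passed in edgeR and 6 of the 14 core genes did. Without control replicate 3 these counts were 2 and 6, and without control replicate 1 they were 2 and 7. The share of all genes called was 16.02%, 19.01% and 16.98% in these 3 fits.

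The sums of both assemblies were set side by side, since their ratio within a library does not depend on how libraries are scaled. The core genes summed to 886, 897 and 823 CPM in control, to 999, 1055 and 980 CPM in light damage, and to 918, 944 and 938 CPM with A74. The 3 groups did not overlap, with A74 between control and light damage. The 17 cap genes summed to 1595 to 1715 CPM in control, 1719 to 1813 CPM in light damage and 1733 to 1779 CPM with A74, so that the latter pair overlapped. The core-to-cap ratio was 0.516, 0.531 and 0.516 in control and 0.581, 0.582 and 0.556 in light damage. With A74 it was 0.530, 0.531 and 0.531, at the upper edge of the control range. Within the high tissue set the ratio was 0.516 and 0.531 in control and 0.581 and 0.582 in light damage, and within the low set it was 0.516 and 0.556. The light damage minus control difference in means was 0.052 and stayed between 0.047 and 0.060 when any one library was left out. These sums are descriptions and carry no test.

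**Figure D4:**
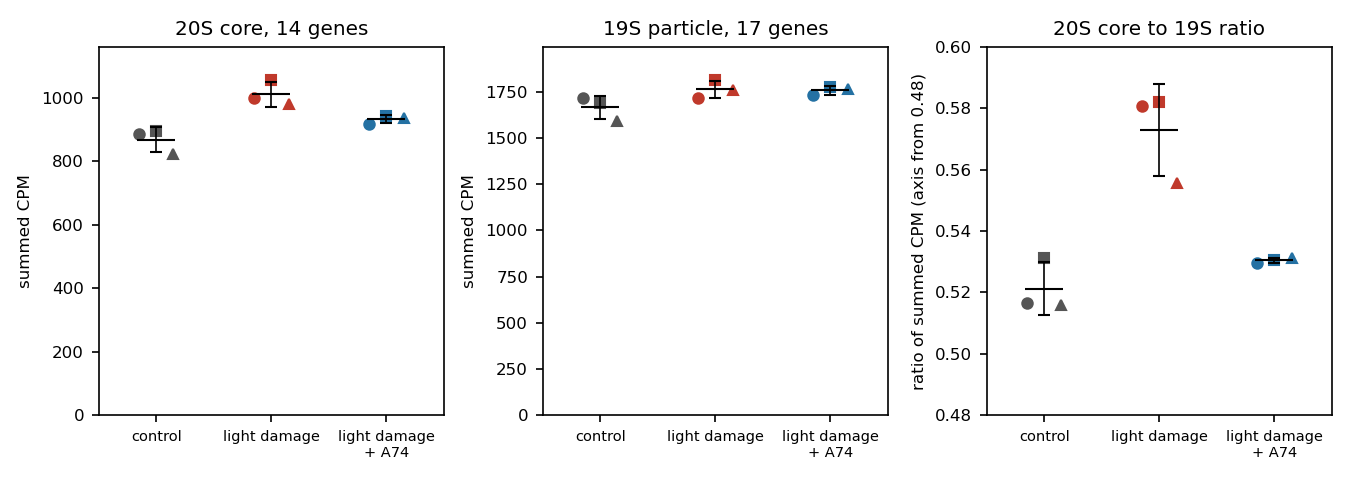
Summed CPM of the 14 core genes and of the 17 genes of the 19S particle, and their ratio, in each of the 9 libraries, with group mean and SD. The ratio axis starts at 0.48. The light damage libraries lie at 0.556 to 0.582, above the 6 others at 0.516 to 0.531.

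The promoters of core and cap genes were searched for short motifs. A window of 300 bases, 250 before and 50 after the RefSeq start site (GRCm38.p6), was at hand for 38 of the 46 genes. The letters CCGGAAG, a site type bound by ETS-family factors, were searched on both strands and found in 9 of 14 cap genes with a window (64.3%) and in 1 of 11 core genes (9.09%). The share was 9.93% over all genes of the table and 17.8% over the genes tested here. That single core gene, Psma6, has a match in only 1 of its 2 windows. CCAAT was found in 54.5% of core and 28.6% of cap genes with a window, against 42.5% of the genes tested. TGACNNNGC, the core of the antioxidant response element to which NRF1 and NRF2 bind with small Maf partners, was found in 18.2% and 14.3%, against 16.7%. A match is a description of the letters and not evidence of binding.

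The 120 bases before the start site are shown for 7 genes that were called, chosen to set core beside cap and rise beside fall. All 7 carry a match, so they do not stand for the called genes at large. The core genes Psma4, Psma5 and Psmb4, which rose, had none of the 3 motifs in their windows, and the lid gene Psmd14 had no ETS-type letters. Psmd12, Psmc6 and Psme4 also have TGACNNNGC in their windows, not wholly within the printed bases. Motif matches that lie wholly within these bases are in capitals, and none overlap each other. The core genes are Psmb5 (chr14:54617996-54618115, minus strand), with TGACNNNGC, and Psmb3 (chr11:97703314-97703433, plus strand) and Psma2 (chr13:14613122-14613241, plus strand), with CCAAT.
Psmb5: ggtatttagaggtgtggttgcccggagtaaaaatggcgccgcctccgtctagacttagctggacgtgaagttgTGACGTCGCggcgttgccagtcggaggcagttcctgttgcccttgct
Psmb3: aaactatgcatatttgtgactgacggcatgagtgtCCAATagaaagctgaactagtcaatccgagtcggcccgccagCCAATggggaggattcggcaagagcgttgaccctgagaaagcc
Psma2: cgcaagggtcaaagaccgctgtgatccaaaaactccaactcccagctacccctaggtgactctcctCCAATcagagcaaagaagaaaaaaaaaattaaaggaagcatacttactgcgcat

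The lid genes Psmd6 (chr14:14120946-14121065, minus strand) and Psmd12 (chr11:107479408-107479527, plus strand), which rose, carry the ETS-type letters, Psmd12 as their reverse complement. So do the 2 genes that fell, the ATPase Psmc6 (chr14:45329704-45329823, plus strand) and the activator Psme4 (chr11:30771655-30771774, plus strand), so the letters were present in genes moving either way.
Psmd6: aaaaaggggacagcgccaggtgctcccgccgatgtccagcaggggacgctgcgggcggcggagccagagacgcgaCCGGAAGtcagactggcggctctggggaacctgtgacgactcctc
Psmd12: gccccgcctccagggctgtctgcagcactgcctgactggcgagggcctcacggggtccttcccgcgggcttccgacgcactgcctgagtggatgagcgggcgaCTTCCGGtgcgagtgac
Psmc6: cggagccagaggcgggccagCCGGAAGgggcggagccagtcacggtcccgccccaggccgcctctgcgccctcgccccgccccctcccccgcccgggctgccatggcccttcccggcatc
Psme4: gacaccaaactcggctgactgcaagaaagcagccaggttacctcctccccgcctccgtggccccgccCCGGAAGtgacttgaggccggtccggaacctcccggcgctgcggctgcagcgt

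Psme4, which encodes a large nuclear activator that caps the core in place of the 19S particle, was lower after light. It had 86.1, 89.8 and 96.3 CPM in control, 72.6, 72.3 and 75.4 CPM in light damage, and 84.2, 78.3 and 90.0 CPM with A74. All light damage libraries lay below all others, and the log2 fold change against control was -0.31 ± 0.06 (adjusted p = 0.0026). The other nuclear activator, Psme3, had a log2 fold change of 0.07, and so did the inhibitor Psmf1, neither passing. The assembly chaperones did not pass either. Psmg4, a chaperone of the alpha ring and the lowest of the 7 per kb, came nearest with 3.78 to 4.71 CPM in control and 5.12 to 6.55 CPM in light damage (log2 fold change 0.47, adjusted p = 0.051). Psmd10, a chaperone of the ATPase ring also known as gankyrin, had a log2 fold change of 0.28 (adjusted p = 0.083).

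Among the 3 genes that match the symbol pattern but were placed in no role, Psme2b was called higher after light, at 2.47 to 2.71 CPM in control and 3.28 to 7.46 CPM in light damage (log2 fold change 1.13, adjusted p = 0.0044). It is a near copy of Psme2, so reads may be split between both and its value is uncertain. Without these 3 genes the counts were 14 higher and 2 lower of 41. Psmc3ip, a meiotic recombination factor, and Psme3ip1, which binds Psme3, had log2 fold changes of 0.00 and 0.13.

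The light effect was also taken within the tissue sets. Its median over the 44 genes was 0.13 in the high set, where 2 control and 2 light damage libraries share Y-linked transcripts, and 0.19 in the low set, with 1 library a group. All 14 core genes had values above 0 in both sets, Psmb5 at 0.41 and 0.62 and Psma6 at 0.34 and 0.35. A test of the difference between the sets called 0 of the 44 genes, where it called 1.17% of all genes, and 2 of the 44 (4.55%) had an unadjusted p under 0.05 in edgeR, against 12.0% of all genes. The light effect was smaller in the high set in 33 of the 44, against 50.4% of all genes. On plain library totals the median of all genes moved to 0.10 and that of the 44 to 0.25. The 44 then gave 29 higher and 1 lower, and all genes 3656 higher and 1296 lower, where TMM gave 2247 and 2205.

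Genes that work with the proteasome under other names were listed apart. Of 12 such genes 4 were called higher and 1 lower, against 13.0% and 12.8% of all genes. Pomp, the maturation factor that assembles the core's half-barrels, had 60.6, 58.2 and 54.1 CPM in control and 75.1, 77.0 and 67.1 CPM in light damage. These did not overlap, and the log2 fold change was 0.34 ± 0.07 (adjusted p = 0.0017). The deubiquitinase Usp14, which sits on the cap, and Pithd1 and Txnl1 rose by 0.20, 0.18 and 0.16. Ecpas, an adaptor that binds the 19S particle, fell by 0.17. The calls of Usp14, Pithd1, Txnl1 and Ecpas were lost when control replicate 1, control replicate 3 or light damage replicate 1 was left out (adjusted p 0.053 to 0.14), and those of the last 3 also without control replicate 2 or light damage replicate 2 (0.053 to 0.18). Cap subunits named outside the symbol pattern, the ubiquitin receptor Adrm1 and the small lid subunit Sem1 had log2 fold changes of 0.09 and 0.27 and did not pass.

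Of 8 genes in the control of proteasome genes by NRF1 and NRF2, 2 were called higher and 2 lower after light. Over all genes these shares were 13.0% and 12.8%. Nfe2l1, which encodes NRF1, the factor that induces proteasome subunits when the machine is overloaded, had 197 to 206 CPM in control and 197 to 207 CPM in light damage (log2 fold change 0.02). Nfe2l2, which encodes NRF2, the oxidative stress factor, had a log2 fold change of 0.10 and did not pass. Ddi2, the protease that activates NRF1, fell from 93.8 to 104 CPM to 75.5 to 80.6 CPM (log2 fold change -0.33, adjusted p = 8.7e-04). Their small Maf partners moved in opposite directions. Mafg went from 158 to 164 CPM down to 112 to 123 CPM (log2 fold change -0.46, adjusted p = 4.7e-05), while Mafk rose from 5.02 to 5.79 CPM to 8.06 to 9.12 CPM (0.67, adjusted p = 0.0018) and Maff rose by 1.30. Of 8 substrate shuttles and unfoldase genes 1 rose, where 13.0% of all genes did. This gene, Rad23b, rose by 0.15 (not passing without any one of the 6 libraries compared, adjusted p 0.051 to 0.15). The 6 genes for ubiquitin and its activating enzymes had adjusted p from 0.17 to 0.84.

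A74 with light damage was compared with light damage alone to see whether A74 altered these levels. Of the 44 genes, 1 was called higher and 3 lower, where 9.07% of all genes were called higher and 9.19% lower, so the members' share of 4 in 44 was below the 18.3% of all genes called either way. Psma2, an alpha subunit, had 99.1, 106 and 101 CPM in light damage and 89.0, 88.4 and 85.3 CPM with A74. The groups did not overlap, and the log2 fold change was -0.22 ± 0.06 (adjusted p = 0.026). Psmb7 had 57.9, 57.3 and 56.4 CPM in light damage and 48.7, 51.4 and 49.6 CPM with A74 (log2 fold change -0.20 ± 0.07, adjusted p = 0.048). Psme4 was the gene that rose, by 0.20 on the log2 scale (SE 0.06, adjusted p = 0.042), and the near copy Psme2b fell by 0.74 with overlapping libraries. Among the related lists, Mafg rose by 0.18 and the shuttle Ubqln4 by 0.22, and both lost the call without light damage replicate 1 or A74 replicate 2 (adjusted p 0.067 to 0.15).

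Other core genes had values on the same side without passing. Psma4 had a log2 fold change of -0.20 (adjusted p = 0.054), Psmb5 of -0.24 (adjusted p = 0.18) and Psma6 of -0.13 (adjusted p = 0.16). In 9 of the 14 core genes every A74 library lay below every light damage library, an order that 17.7% of all genes showed. The medians were -0.13 for the alpha ring and -0.14 for the beta ring, and 0.00 for the 6 ATPases and -0.03 for the 8 lid subunits. Both comparisons given so far use the same 3 light damage libraries, so these values are not independent of those above.

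The number of calls moved with single libraries, among the 44 and among all genes. Leaving out light damage replicate 2 or A74 replicate 3 gave 0 of the 44 genes called, where 9.84% and 10.01% of all genes were called, and leaving out light damage replicate 3 gave 7, where 25.4% were. Leaving out any of the other 2 A74 libraries or light damage replicate 1 gave 1 or 2, and leaving out control replicate 1 or 2, which are outside this comparison but enter the filter, scaling and shared spread, gave 1. Of all genes, 9.78 to 15.2% were called in the former fits and 15.3 and 15.9% in the latter. Psma2 lost its call without light damage replicate 2, A74 replicate 2 or A74 replicate 3 (adjusted p 0.076 to 0.11). Psmb7 lost its call without any one of the light damage replicates 1 and 2 and the A74 libraries (adjusted p 0.081 to 0.12). Psme4 and Psme2b lost theirs at least without light damage replicate 2 and without A74 replicate 3, where 0 of the 44 were called. With Y-linked transcripts as a term, which the A74 libraries all lack, 0 of the 44 and 4.31% of all genes were called in edgeR, and Psma2 had a log2 fold change of -0.14 (adjusted p = 0.30). Within the tissue sets Psma2 had -0.21 in both, Psmb7 -0.24 in the high and -0.16 in the low set, and Psme4 0.22 and 0.16. Psma4 had -0.38 and -0.07, Psmb5 -0.32 and -0.10, and Psma6 -0.21 and -0.03 in the high and low sets. The median of the 44 was -0.07 in the high set, where A74 replicate 1 stands alone. It was 0.00 in the low set, where light damage replicate 3 stands alone. Above 0 lay 14 and 23 of the 44, beside 8428 and 8778 of all 17272 genes. In light damage replicate 3 the rod markers summed to 52015 CPM, against 35710 and 44805 in replicates 1 and 2. The microglia and macrophage markers summed to 162 CPM there, against 284 and 228. Tissue set and these marker levels cannot be told apart in this split. On plain library totals 0 of the 44 were higher and 9 lower, beside 1011 higher and 2288 lower of all genes, where TMM gave 1566 and 1587.

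A74 with light damage was last compared with control. None of the 44 genes passed in edgeR or in DESeq2, where edgeR called 0.892% of all genes, 0.591% higher and 0.301% lower. At an unadjusted p under 0.05, edgeR gave 17 of the 44, all of them higher, against 8.22% of all genes higher, and DESeq2 gave 14, all higher, against 6.26%. The log2 fold change was above 0 in 39 of the 44 (median 0.11) and in 49.5% of all genes (median 0.00). Within the high tissue set, where A74 replicate 1 stands alone, the median of the 44 was 0.06. Within the low set, where control replicate 3 stands alone, it was 0.19. Above 0 lay 32 and 40 of the 44, beside 8276 and 8718 of all 17272 genes (medians -0.01 and 0.00). In 23 of the 44 every A74 library lay above every control library, an order that 11.8% of all genes showed. Psma6 had 72.3, 75.5 and 74.2 CPM with A74, above the 60.0 to 68.5 CPM of control (log2 fold change 0.21, adjusted p = 0.13). Psmb3 had 59.2, 60.4 and 59.7 CPM against 48.6 to 55.5 CPM (0.21, adjusted p = 0.17), and the lid subunit Psmd7 90.9, 94.3 and 98.3 CPM against 79.1 to 84.8 CPM (0.20, adjusted p = 0.12). Among the chaperones of the ATPase ring, Psmd9 (log2 fold change 0.31, adjusted p = 0.088) and Psmd5 (0.22, adjusted p = 0.11) had all A74 libraries above all control libraries. Of the NRF1 and NRF2 list, Mafk rose by 0.88 and Mafg fell by 0.28, the latter not passing without A74 replicate 2 or 3 or any one control library (adjusted p 0.051 to 0.16). All genes gave 102 higher and 52 lower, and 207 and 51 on plain library totals, with 2 of the 44 higher.

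The interferon-inducible catalytic subunits Psmb8, Psmb9 and Psmb10 replace Psmb5, Psmb6 and Psmb7 in newly built cores, which then cut proteins differently and favour peptides for antigen presentation. Psmb8, Psmb9, Psmb10 and the cap subunit Psme1 were called higher after light, by 2.48, 2.82, 1.09 and 0.85 on the log2 scale, and Psme2 was not (0.34, adjusted p = 0.051). Of all genes, 13.0% were called higher after light. With A74 Psmb8, Psmb9, Psmb10 and Psme1 were called lower than in light damage, as were 9.19% of all genes. The call of Psme1 was lost without light damage replicate 2 or any one A74 library (adjusted p 0.057 to 0.076). The 5 genes summed to 52.3 to 58.5 CPM in control, 73.6 to 124 CPM in light damage and 58.7 to 66.0 CPM with A74, small beside the core.

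The CPM ratio of Psmb8 to Psmb5 was 0.098, 0.074 and 0.154 in control and 0.639, 0.416 and 0.206 in light damage. With A74 it was 0.112, 0.104 and 0.062. Light damage libraries lay above all others, with light damage replicate 3 nearest to control. The ratio of Psmb9 to Psmb6 was 0.0055 to 0.011 in control, 0.036 to 0.065 in light damage and 0.012 to 0.018 with A74. That of Psmb10 to Psmb7 was 0.095 to 0.128, 0.179 to 0.267 and 0.134 to 0.153. On the log2 scale light damage exceeded control by 1.87, 2.60 and 0.95 for these 3 ratios. Each gave p = 0.1 in a two-sided exact permutation test, the smallest that 3 libraries against 3 allow, and 0.1125 after Benjamini-Hochberg adjustment over the 9 ratio comparisons. A74 differed from light damage by -2.08, -1.70 and -0.65 with the same exact p of 0.1. A74 exceeded control without overlap by 0.90 for Psmb9 to Psmb6 and by 0.30 for Psmb10 to Psmb7, again with an exact p of 0.1. For Psmb8 to Psmb5 A74 and control overlapped, with a difference of -0.21 (exact p = 0.7) that turned to 0.07 without control replicate 3 and to 0.05 without A74 replicate 3. The microglia and macrophage markers given above were likewise highest in the light damage libraries, and their part in these ratios was not tested.

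**Figure D5:**
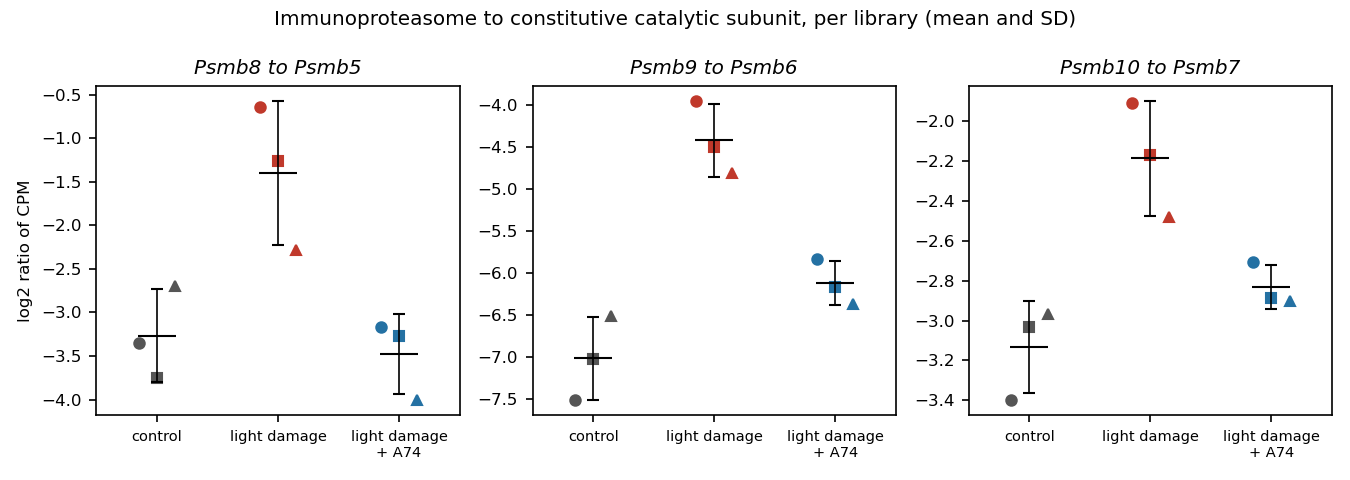
Log2 ratio of the CPM of each interferon-inducible catalytic subunit to that of the constitutive subunit it replaces, in each library by group, with mean and SD. The light damage libraries of each ratio lie above all control and A74 libraries.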

How the data were processed

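Total RNA of 9 mouse retina libraries was sequenced. The authors deposited one table of whole-number read counts per gene for all libraries. Per the submitters' processing notes, the tools were RSEM 1.3.1, Bowtie2 and DESeq2 1.4.5 and the build GRCm39, with no role given to each. Whether counts are rounded RSEM estimates or used strand is not given in the sources used here. Groups and replicate numbers come from sample titles.

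Genes passed edgeR's filterByExpr (minimum count 10), leaving 17272. After TMM scaling, counts were tested in R 4.3.3 using edgeR 4.0.16 (robust quasi-likelihood, 1 fit of all libraries, Benjamini-Hochberg over all genes), and the SE is the log2 fold change over the square root of F. The tests were also run on counts simulated with the fitted spread. Passing that check required recovery of a change larger than those of most members, so it does not speak for small changes. DESeq2 1.42.0 and other alternatives are given in the closing section. Members and lists were chosen with earlier results of these data known. Named genes are members called among the 12 smallest adjusted p, the catalytic subunits, the member of smallest p per role, up to 3 called genes per related list, the interferon-inducible genes, and Nfe2l1, Nfe2l2, Pomp, Adrm1 and Sem1. Others named illustrate a role and were chosen after their values were seen. Tissue sets split libraries by the summed CPM of 8 anterior eye genes, a list made after the data were seen.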

Additional observations from a re-analysis of the deposited data

How the results depend on the processing

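For light damage against control, 17 of 44 genes were called. The count was 30 on plain library totals and 8 at an adjusted p under 0.01, and ran from 8 to 21 when a library was left out. For the core, 10 of 14 became 6 at that threshold and 6 to 10 without a library. For the cap, 5 of 17 became 11 on library totals, 3 in DESeq2, 0 at the stricter threshold, and 0 to 7 without a library. The share of all genes called moved too, from 25.8% to 28.7% on library totals and 22.4% in DESeq2. It was 13.9% at the stricter threshold and 16.0 to 30.8% without a library. For A74 against light damage, 4 of 44 became 9 on library totals, 1 in DESeq2, 2 with both groups alone, 1 with tissue set as a term, 0 with Y-linked transcripts as a term, 0 at the stricter threshold, and 0 to 7 without a library. The share of all genes went from 18.3% to 19.1%, 16.4%, 14.8%, 15.3%, 4.31% and 7.86% in the same order. Without a library it was 9.78 to 25.4%. For A74 against control, 0 became 2 on library totals, 3 without the count filter, 2 with both groups alone, 3 without light damage replicate 3 and A74 replicate 1, and 0 to 1 without a library. The share of all genes went from 0.892% to 1.49%, 2.27%, 3.33% and 5.32% in the same order. Without a library it was 0.119 to 2.34%. The cause of these changes was not tested, beyond the fewer libraries or stricter threshold that some hold by construction. No named gene that was called changed direction.

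The deviations of same-numbered libraries from their group means had correlations of -0.11 to 0.31. Libraries also share tissue sets and Y-linked transcripts, so these values cannot settle whether the numbers pair the samples. With the replicate block 18, 5 and 0 of 44 were called in the 3 comparisons, with 10 core and 6 cap genes in the first. The shares of all genes were then 26.6%, 19.5% and 0.787%. Without a library, the light damage minus control difference in the log2 ratio ran from 1.49 to 2.31 for Psmb8 to Psmb5, 2.35 to 2.85 for Psmb9 to Psmb6 and 0.81 to 1.10 for Psmb10 to Psmb7. The A74 minus control difference for Psmb8 to Psmb5 ran from -0.46 to 0.07 and so changed sign. Leave-one-out settings for the ratios and the separate core and cap counts were chosen after seeing the data. In control and with A74, Psmg4, Psme2b, Psmb8 and Psmb9 stand at a few CPM or less, where counting error is largest.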
